A study of Rattus with 9 samples.

Results

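The comparison described here set the livers of both arms of a pomegranate study, the arm labelled model and the arm labelled pomegranate-high, together against normal control livers, and looked for genes that stood on the same side of control in both arms. It used all 9 poly(A) RNA sequencing libraries of the series, 3 per group, with 6 libraries in the 2 arms and 3 in the controls. Of 20236 genes in the deposited table, the 11078 with an FPKM (fragments scaled by gene length and library total) of 1 or more in 3 or more of the 9 libraries were tested. All livers came from Sprague-Dawley rats, an outbred laboratory strain, sampled at 8 weeks of administration in a study of hyperlipidemia, an excess of lipids in the blood. Control rats were labelled normal control, and the labels say neither how the model was made nor whether the pomegranate-high rats also received the model treatment, at what dose and in what preparation the pomegranate was given, or what sex the animals were. Library titles start with SG for model and with M for pomegranate-high, letters the labels leave unexplained. The main contrast weights both arms equally, so its values are the same whichever arm bears which label. No label states that each library is a separate animal, and p-values therefore measure only the spread between these libraries, which may be technical.

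The liver breaks down surplus amino acids, among them histidine, in hepatocytes near the portal vein, and feeds the released carbon and nitrogen into folate metabolism and the urea cycle. Hepatocytes also make cholesterol in a long chain of enzymes that is turned down when cells hold enough sterol, and they turn cholesterol into bile acids. The blood channels of the liver are lined by a sinusoidal endothelium that takes up waste molecules through scavenger receptors. Genes of these 3 systems made up much of what follows.

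Depth read back from the FPKM steps was 13678658 to 17966670 reads per library, and 3 reads on a gene of 1 kb, the upper limit behind a count of 0, equal 0.167 to 0.219 FPKM. These limits cover counting error only. Reads on mitochondrially encoded genes made up 4.17% to 6.38% of the control libraries, 4.99% to 14.5% of the model libraries and 4.22% to 11.4% of the pomegranate-high libraries. Model replicate 1 and pomegranate-high replicates 1 and 2 had the highest mitochondrial shares and the lowest median correlations with the other libraries, 0.922 to 0.931 against 0.963 to 0.97. They are called the 3 high-mitochondrial libraries from here on, and results are also given without them. The hepatocyte markers were abundant in all libraries, with summed levels of 59600 to 66700 FPKM in control, 55900 to 65200 in model and 42200 to 57400 in pomegranate-high livers. Differences below are log2 differences of FPKM + 1, the mean of both arms minus control, with their standard error (SE), and understate the fold change of low genes.

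Tested with limma and adjusted by Benjamini-Hochberg, 1 of 11078 genes (0.00903%) passed an adjusted p of 0.05 with both arms on the same side of control. It was RT1-CE16, a gene for an MHC class I molecule, which was lower, and 0 genes passed on the higher side. RT1-CE16 met the expression filter through the 3 control libraries alone, the group in which it was high. With no filter on low values its adjusted p was 0.044 by limma. At an unadjusted p under 0.05 there were 579 genes (5.23%), 367 higher (3.31%) and 212 lower (1.91%), a share near the threshold itself. The balance of higher and lower depended on the scaling, with 302 higher and 319 lower under median-of-ratios scaling, 334 and 322 under quantile normalization, 322 and 293 under TPM scaling, and 425 and 144 where mitochondrial share was a covariate. The total also rested on single libraries, at 335 genes without control replicate 2, 380 without control replicate 3 and 1333 without pomegranate-high replicate 3. With the 3 high-mitochondrial libraries left out it was 728, and 0 genes passed the adjusted threshold. In 285 genes (2.57%) all 6 libraries of the arms lay beyond all 3 controls, 168 above (1.52%) and 117 below (1.06%). Both arms stood on the higher side of control in 3803 genes (34.3%) and on the lower side in 3436 (31%), the background for the list counts below.

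Each arm was also set against control by itself. At an unadjusted p under 0.05 there were 330 genes (2.98%) for model and 1125 (10.2%) for pomegranate-high, and 1 (0.00903%) and 2 (0.0181%) passed the adjusted threshold. An unadjusted p under 0.05 in both arms with the same direction was met by 99 genes (0.894%), 55 higher (0.496%) and 44 lower (0.397%). Both arms were compared with the same 3 controls, so a control library that stands apart puts a gene on the same side in both arms, and the 99 genes are a description and no test. Of the 99 genes 77 were protein-coding, and 10 were long intergenic noncoding RNAs. The difference was larger in the pomegranate-high arm in 62 of them, and 4 had an unadjusted p under 0.05 between the arms. For 74 of the 99 genes the 6 libraries of the arms did not overlap with the controls, against 2.57% of all genes. The choice by p favours such genes, so this count supports nothing. Without the 3 high-mitochondrial libraries the count was 154 genes and held 42 of the 99, which is 42.4%.

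**Figure D1:**
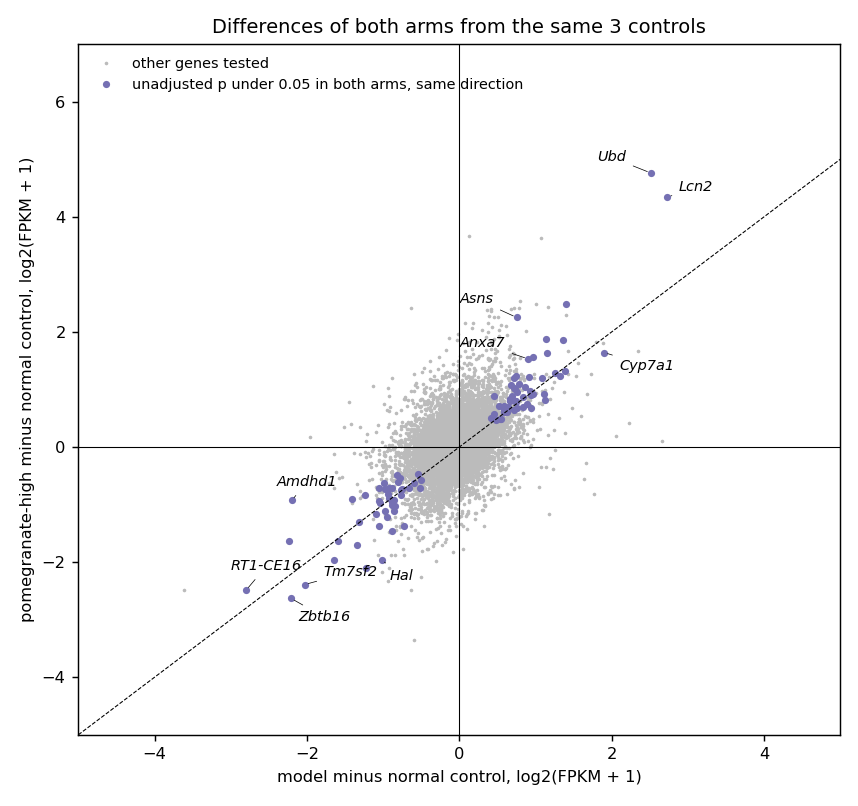
Difference of the model arm from control (horizontal axis) and of the pomegranate-high arm from control (vertical axis), both in log2(FPKM + 1), with 1 point per gene for 11078 genes and with the 99 genes past an unadjusted p of 0.05 in both arms in the same direction in colour. The 99 coloured points lie in the lower left (44 genes) and upper right (55 genes) corners, and both axes use the same 3 control libraries.

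RT1-CE16 encodes a class I molecule, the kind that presents peptides on the cell surface. Its gene (ENSRNOG00000059770) lies on chromosome 20, 3791629 to 3796275, minus strand, build Rnor_6.0. It read 3.99, 6.33 and 8.29 FPKM in control livers, was listed at 0 in all 3 model libraries, and stood at 0.91, 0 and 0 FPKM in the pomegranate-high libraries. In recovered reads this was 65, 106 and 150 reads in the controls, 0 in each model library, and 15, 0 and 0 in the pomegranate-high libraries. The arms and the controls did not overlap, and 5 of the 6 libraries of the arms held no read of the gene. Set against 3 reads per library, a level of 0.218 FPKM in the shallowest model library, the model arm was at least 28.5-fold lower than the control mean. The difference of both arms from control was −2.65 ± 0.26 SE (adjusted p = 0.0149). It was −2.80 ± 0.30 for model and −2.49 ± 0.30 for pomegranate-high, and the arms did not pass a test against each other (adjusted p = 0.784). The call ended without control replicate 2 (adjusted p = 0.093), control replicate 3 (0.141), model replicate 1 (0.0737), model replicate 2 (0.0738) or model replicate 3 (0.0677), without the 3 high-mitochondrial libraries (0.0866), with a pseudocount of 0.1 (0.162) and with mitochondrial share as a covariate (0.145), while the difference stayed between −2.89 and −2.44 with any 1 library left out. The adjusted p of RT1-CE16 ran from 0.00119 to 0.162 over 21 alternatives.

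A second gene identifier with the same symbol, ENSRNOG00000047706, overlaps it on the same strand at 3791407 to 3794027. That copy read 0, 37.9 and 52.0 FPKM in control livers, 0.134, 0 and 0 in model livers and 10.3, 0 and 0.0564 in pomegranate-high livers. Control replicate 1 lacked it and pomegranate-high replicate 1 carried it, so the groups overlapped (−3.04 ± 1.19 SE, adjusted p = 0.844). Class I genes are close copies of each other, reads can be shared or lost among them, and the labels do not say how such reads were treated. The other listed class I genes and their loading machinery showed no common direction. Outside the list, the pseudogene RT1-CE9-ps1 on chromosome 20 was lower in both arms, with overlap (−1.04 ± 0.31 SE, unadjusted p = 0.00721 by limma). Of the 17 tested genes in the list of class I and antigen processing genes, both identifiers of RT1-CE16 left aside, 4 were higher in both arms, 3 were lower in both and 10 were mixed. B2m, the light chain shared by class I molecules, read 973, 926 and 732 FPKM in control livers, 898, 967 and 820 in model livers and 1450, 1870 and 850 in pomegranate-high livers. Its groups overlapped (0.32, unadjusted p = 0.261).

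For naming, genes were taken whose 6 libraries in the arms all lay beyond the 3 controls, 12 per direction, by size for the called gene and then by the smallest p. Their lack of overlap follows from that choice and supports nothing. Apart from RT1-CE16 none of the 24 passed the adjusted threshold, so all values below describe these 9 libraries.

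**Figure D2:**
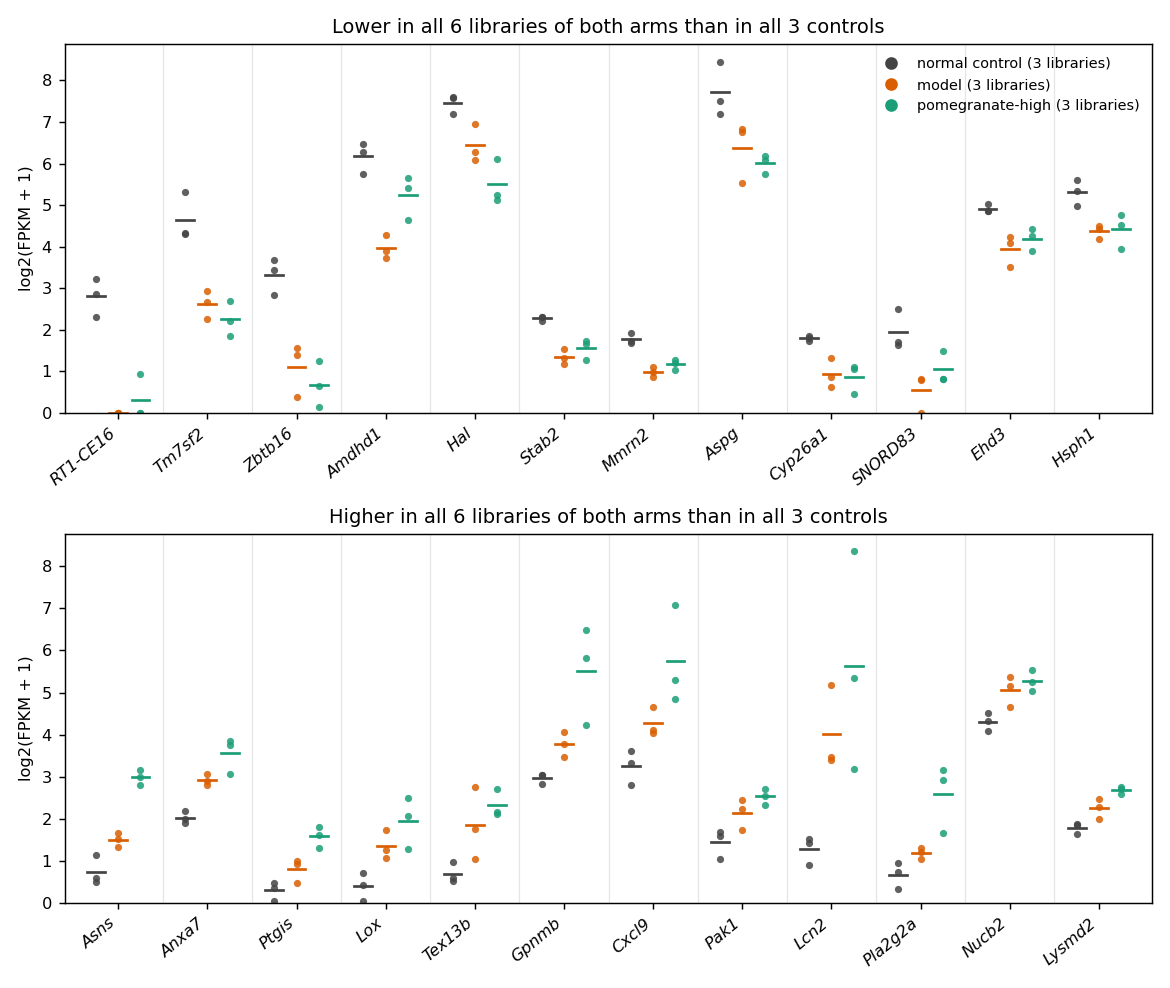
Level of the 24 named genes in log2(FPKM + 1), with 1 point per library and 3 libraries per group, 12 lower genes in one panel and 12 higher genes in the other. RT1-CE16, Tm7sf2 and Zbtb16 show the widest gaps below the controls, and Lcn2 the widest spread among the libraries of the arms.

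Among the lower genes the second lowest p belonged to a sterol gene. Tm7sf2 encodes a sterol reductase that removes a double bond on the way from lanosterol to cholesterol (chromosome 1, 221425987 to 221431713, minus strand). It read 19.0, 39.0 and 18.8 FPKM in control livers, 3.80, 6.61 and 5.34 in model livers and 5.48, 3.66 and 2.62 in pomegranate-high livers. The highest library of the arms lay well below the lowest control. The difference was −2.21 ± 0.29 SE (adjusted p = 0.0581), −2.03 ± 0.33 for model and −2.39 ± 0.33 for pomegranate-high. Without the 3 high-mitochondrial libraries it was −2.32, and without control replicate 2, the highest control, −1.88.

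Of the 20 cholesterol synthesis genes tested, 18 were lower in both arms and 2 higher, with a median difference of −0.57 against 0.02 over all genes. The medians were −0.60 in each arm alone. An unadjusted p under 0.05 was met by 7 members on the lower side and 0 on the higher side, where over all genes 1.91% and 3.31% did. Tm7sf2, named by its lack of overlap and its p, is among the 7. In 1 member, Tm7sf2, all 6 libraries lay below all controls, as in 1.06% of all genes. Cyp51, which removes a methyl group from lanosterol, read 17.0, 46.8 and 11.4 FPKM in control livers, 12, 10.7 and 8.75 in model livers and 7.61, 7.91 and 10.3 in pomegranate-high livers (−1.08 ± 0.36 SE). Control replicate 2 stood far above the other controls, which overlapped with the arms. The same library was high across the list. The mean level of the list, relative to the control mean, was −0.32, 0.64 and −0.32 in control livers, −0.67, −0.44 and −0.55 in model livers and −0.57, −0.80 and −0.50 in pomegranate-high livers. All 6 libraries of the arms thus lay below all 3 controls, though by a small step against the distance between the controls. Without control replicate 2 the median of the list was −0.26, and without the 3 high-mitochondrial libraries −0.40. Nsdhl (0.40) and Sc5d (0.17), a dehydrogenase and a desaturase of the late steps, were the 2 members on the higher side.

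Sterol sensing and uptake genes stood in mixed directions. Insig1, which holds the sterol sensor in the endoplasmic reticulum, read 211, 96.3 and 150 FPKM in control livers, 56.5, 89.1 and 127 in model livers and 76.2, 22.6 and 41.3 in pomegranate-high livers (−1.26 ± 0.40). Of the 14 members tested, 7 were lower in both arms, 1 was higher and 6 were mixed. Srebf2, the transcription factor of the cholesterol genes, stood at −0.48 ± 0.32 over both arms. Srebf1, its counterpart for fatty acid synthesis, stood at 0.82 ± 0.38, from 1.39 ± 0.44 for model and 0.24 ± 0.44 for pomegranate-high.

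The histidine breakdown genes Hal and Amdhd1 were among the 12 named lower genes. The pathway runs from histidine through Hal, which removes ammonia, Uroc1, which hydrates urocanate, and Amdhd1, which opens the imidazolone ring, to Ftcd, which hands the remaining carbon unit to folate. Hal read 191, 144 and 194 FPKM in control livers, 67.0, 76.3 and 122 in model livers and 36.8, 34.0 and 68.5 in pomegranate-high livers. No library of either arm reached the controls, and the pomegranate-high libraries were mostly the lowest (−1.49 ± 0.29 SE, adjusted p = 0.442). Amdhd1 read 87.8, 53.1 and 76.6 FPKM in control livers, 12.2, 13.9 and 18.4 in model livers and 41.9, 24.1 and 49.3 in pomegranate-high livers. Here the order of the arms was turned, with the model libraries below the pomegranate-high libraries (−1.57 ± 0.27, adjusted p = 0.298). Between the arms Hal differed by −0.94 ± 0.33 and Amdhd1 by 1.28 ± 0.31, pomegranate-high minus model, and neither passed (adjusted p = 0.489 and 0.478 by limma). Both genes lie side by side on chromosome 7, Hal at 34326087 to 34356413 on the plus strand and Amdhd1 at 34361633 to 34406318 on the minus strand, with 5219 bases between their ends. Uroc1 read 199, 203 and 228 FPKM in control livers, 158, 174 and 209 in model livers and 101, 115 and 142 in pomegranate-high livers (−0.52 ± 0.20). The pomegranate-high arm lay apart and the model arm overlapped with the controls. Ftcd read 292, 335 and 503 FPKM in control livers, 143, 291 and 341 in model livers and 278, 182 and 229 in pomegranate-high livers (−0.64 ± 0.31), with overlap.

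The list that joins these enzymes with those of folate and methyl group metabolism had 15 tested members, 13 lower in both arms and 2 higher, with a median of −0.64 (−0.41 for model and −0.82 for pomegranate-high). An unadjusted p under 0.05 was met by 8 members on the lower side and 1 on the higher side, against 1.91% and 3.31% of all genes. Hal and Amdhd1, named by their lack of overlap and their p, are among the 8. Mat1a, which makes the methyl donor of the liver, read 1660, 925 and 1700 FPKM in control livers, 810, 924 and 939 in model livers and 668, 468 and 767 in pomegranate-high livers (−0.89 ± 0.27). Mthfd1, which moves carbon units between folates, stood at −0.74 ± 0.27 and Ahcy, which clears the by-product of methylation, at −0.73 ± 0.27. The member on the higher side was Hdc, which turns histidine into histamine instead of breaking it down. It read 3.63, 2.80 and 5.22 FPKM in control livers, 7.69, 9.01 and 2.57 in model livers and 21.9, 63.4 and 7.08 in pomegranate-high livers (1.38 ± 0.56), with model replicate 3 below the controls. The mean level of the list was −0.04, −0.09 and 0.12 in control livers, −0.63, −0.49 and −0.23 in model livers and −0.64, −0.76 and −0.48 in pomegranate-high livers. Every library of the arms lay below every control. The 3 high-mitochondrial libraries were the 3 lowest of them. Without those 3 libraries the median was −0.41, and −0.38 where mitochondrial share was a covariate.

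**Figure D3:**
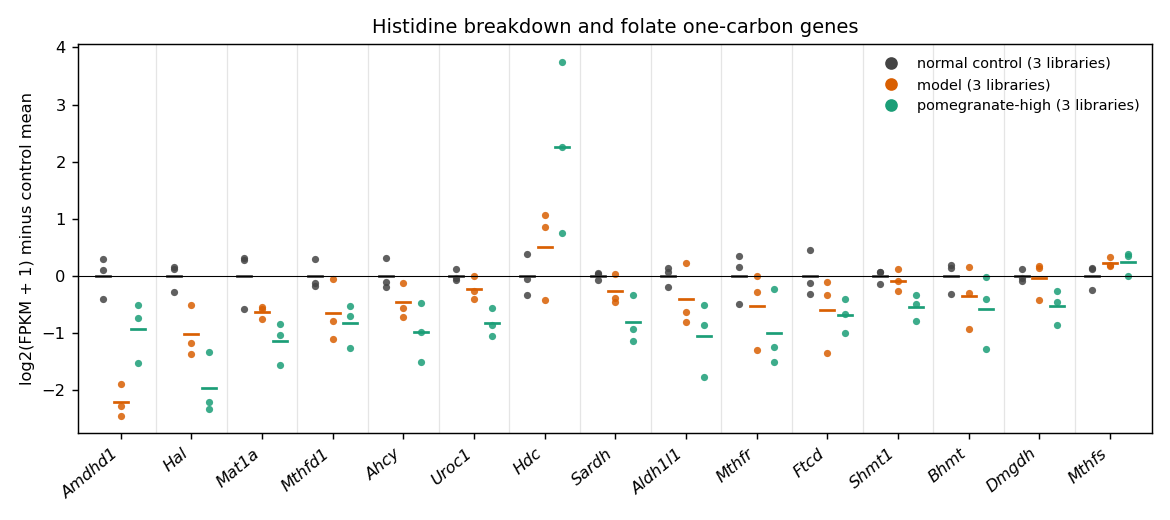
Level of the 15 tested members of the list of histidine and folate genes, as log2(FPKM + 1) minus the mean of the 3 controls, with 1 point per library and 3 libraries per group. Of the 15 members 13 lie lower in both arms, Amdhd1 is lowest in the model libraries and Hal in the pomegranate-high libraries, and Hdc and Mthfs lie on the higher side.

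Other enzymes of amino acid breakdown stood lower as well, as a list mainly in the pomegranate-high arm. Aspg, a liver asparaginase, read 179, 144 and 349 FPKM in control livers, 45.2, 112 and 107 in model livers and 52.5, 71.1 and 67.2 in pomegranate-high livers (−1.52 ± 0.36 SE, adjusted p = 0.794). All 6 libraries lay below the controls, whose own values ran over a wide range. Gls2, the liver glutaminase, read 219, 111 and 225 FPKM in control livers, 98.2, 108 and 113 in model livers and 79.2, 48.3 and 79.2 in pomegranate-high livers (−1.05 ± 0.28), and 1 model library reached the lowest control. Cbs, which draws homocysteine into cysteine synthesis, read 244, 213 and 306 FPKM in control livers, 147, 192 and 161 in model livers and 133, 75.1 and 138 in pomegranate-high livers (−0.89 ± 0.25). Of the 25 genes in the list of other amino acid breakdown 17 were lower in both arms, 3 higher and 5 mixed, with a median of −0.30. Among them 6 met an unadjusted p under 0.05 on the lower side. The median was −0.08 for model and −0.45 for pomegranate-high, against −0.03 and 0.07 over all genes. The mean level of the list was −0.28 in control replicate 2 and −0.37, −0.16 and −0.07 in model livers, so the model arm overlapped with the controls. Sds, a serine dehydratase, showed how far the controls could differ, with 905, 55.7 and 885 FPKM in them (−1.97 ± 0.83). Its level in control replicate 2 lay among those of the arms. Of the 9 urea cycle genes 7 were lower in both arms and 2 higher (median −0.48, from −0.21 for model and −0.72 for pomegranate-high). Ass1 (−0.86) and Asl (−0.98), the enzymes that make and split argininosuccinate, led them, and Asl stood at −0.48 without control replicate 3. The mean level of the list in control replicate 2 (−0.23) lay among those of the model libraries (−0.21, −0.30 and −0.08). The urea cycle median was −0.22 with the 3 high-mitochondrial libraries left out.

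Hal, Gls2 and Sds are also markers of periportal hepatocytes, and the periportal list, which shares them, had 9 of 13 members lower in both arms and 2 higher (median −0.45). The pomegranate-high arm carried most of this, with a median of −0.65 against −0.17 for model. The mean level of the list in control replicate 2 (−0.42) lay below all model libraries (−0.31, −0.28 and −0.13). Pck1, the entry enzyme of glucose production, read 2280, 2320 and 3450 FPKM in control livers, 1280, 1850 and 2060 in model livers and 1240, 525 and 1610 in pomegranate-high livers, all 6 below the controls (−1.0 ± 0.36). Genes of hepatocytes around the central vein leaned the other way, with 10 of 14 higher in both arms and 3 lower (median 0.37, 0.60 without the 3 high-mitochondrial libraries and 0.10 without control replicate 1). Rgn, a calcium-binding lactonase, read 177, 187 and 195 FPKM in control livers, 367, 331 and 242 in model livers and 336, 271 and 271 in pomegranate-high livers (0.68 ± 0.21). Its groups did not overlap. Glul, the glutamine synthetase of the innermost cells, read 50.1, 113 and 111 FPKM in control livers and overlapped with both arms (0.48, unadjusted p = 0.122). The opposite lean was no rule for each gene, since Cyp1a2, a central enzyme, stood at −0.37. In bulk liver, fewer cells of a kind and less RNA per cell cannot be told apart.

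Most endothelial markers stood lower in both arms. Stab2, a sinusoidal scavenger receptor for hyaluronan and other waste, read 3.93, 3.92 and 3.67 FPKM in control livers, 1.5, 1.92 and 1.25 in model livers and 1.44, 2.33 and 2.16 in pomegranate-high livers. The arms lay apart from the controls and overlapped with each other (−0.82 ± 0.17 SE, adjusted p = 0.77). Mmrn2, a matrix protein of vessel walls, read 2.22, 2.35 and 2.77 FPKM in control livers, 0.83, 1.14 and 0.976 in model livers and 1.06, 1.42 and 1.30 in pomegranate-high livers (−0.70 ± 0.16, adjusted p = 0.794). Stab1, the sister receptor of Stab2, read 6.2, 9.43 and 10.7 FPKM in control livers, 2.13, 5.90 and 3.15 in model livers and 1.84, 3.31 and 5.42 in pomegranate-high livers (−1.13 ± 0.32), again with no overlap. Kdr, the main signalling receptor for the growth factor VEGF, read 10.1, 10.3 and 8.83 FPKM in control livers, 4.06, 5.46 and 3.82 in model livers and 4.02, 7.49 and 6.83 in pomegranate-high livers (−0.81 ± 0.21). Ehd3, which acts in endocytic recycling, read 28.1, 31.4 and 28.2 FPKM in control livers and between 10.5 and 20.5 in the 6 libraries of the arms (−0.85 ± 0.21). Mmrn2 and Ehd3 are not in the endothelial marker list and were named by their lack of overlap.

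Of the 13 liver endothelium markers tested 11 were lower in both arms and 0 higher. In 3, Stab1, Stab2 and Kdr, all 6 libraries lay below all controls, as in 1.06% of all genes. An unadjusted p under 0.05 was met on the lower side by 7 markers, against 1.91% of all genes. Stab2 was named by its lack of overlap and its p, so its part in these counts supports nothing. The median was −0.50, made of −0.81 for model and −0.32 for pomegranate-high. The mean level of the list was 0, −0.01 and 0 in control livers, −1.02, −0.52 and −0.98 in model livers and −0.65, 0 and −0.50 in pomegranate-high livers. Pomegranate-high replicate 2 therefore stood at the level of the controls and the other 5 libraries below it. Leaving out the 3 high-mitochondrial libraries gave a list median of −0.66. Summed levels of the markers were 180 to 207 FPKM in control, 84.4 to 139 in model and 121 to 194 in pomegranate-high livers, with 0 markers listed at 0. Markers of other liver cells gave other counts. The Kupffer cell and macrophage list had 5 of 15 members lower in both arms, 2 higher and 8 mixed (−0.79 for model and 0.14 for pomegranate-high). Among them 2, the scavenging receptors Mrc1 (−0.65) and Cd163 (−0.81), lay below all controls in all 6 libraries, and 3 met an unadjusted p under 0.05 on the lower side and 1 on the higher side. Its summed levels were 542 to 925 FPKM in control, 227 to 603 in model and 661 to 1400 in pomegranate-high livers. The stellate cell and matrix list had 6 of 12 higher in both arms and 2 lower, with summed levels of 41.9 to 57.2, 40.5 to 66.4 and 62.6 to 145 FPKM. All 6 red blood cell markers were mixed, lower in the model arm (median −0.87) and higher in the pomegranate-high arm (0.48).

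**Figure D4:**
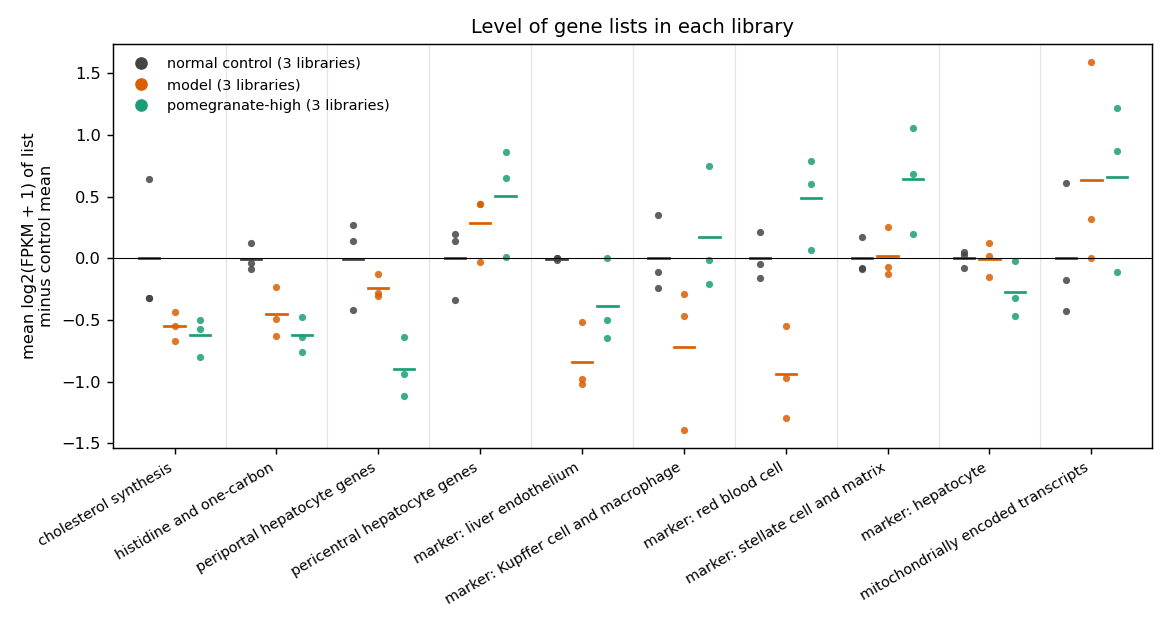
Mean log2(FPKM + 1) of 10 gene lists in each of the 9 libraries, minus the mean of the 3 controls. The lists of histidine and cholesterol genes lie below all controls in all 6 libraries of the arms, the endothelial markers in 5 of 6 with pomegranate-high replicate 2 at 0, and the red blood cell markers lie on opposite sides in the 2 arms.

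Other lower genes came from several systems. Zbtb16, a zinc finger transcription factor that responds to glucocorticoids, read 9.83, 11.8 and 6.13 FPKM in control livers, 0.306, 1.61 and 1.94 in model livers and 0.559, 0.108 and 1.40 in pomegranate-high livers. No library of the arms came near the controls (−2.42 ± 0.33 SE, adjusted p = 0.0642), and without the 3 high-mitochondrial libraries the difference was −1.95. The rest of its list, 17 genes of the glucocorticoid and growth hormone axis, was 7 lower in both arms, 2 higher and 8 mixed, with a median of −0.12. Cyp26a1, which breaks down retinoic acid, read 2.31, 2.61 and 2.51 FPKM in control livers and between 0.376 and 1.5 in the arms (−0.89 ± 0.22). Hsph1, a chaperone of the heat shock response, read 30.3, 39.6 and 47.7 FPKM in control livers, 17.2, 20.5 and 21.7 in model livers and 22.0, 14.5 and 26.3 in pomegranate-high livers (−0.91 ± 0.23). Of the 14 heat shock chaperones tested 11 were lower in both arms and 0 higher, though 1, Hsph1, met an unadjusted p under 0.05 and the median was −0.22. SNORD83, a small nucleolar RNA from a short gene that oligo(dT) beads catch poorly, completed the lower genes (−1.16 ± 0.28). It read 4.70, 2.29 and 2.11 FPKM in control livers, 0, 0.774 and 0.742 in model livers and 0.774, 1.80 and 0.777 in pomegranate-high livers. Its gene runs only from 4817556 to 4817634 on chromosome 20, so few reads make up these values. All levels in the arms lay under the limit of 3 reads for a gene so short and cannot be told from 0.

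On the higher side the lowest p belonged to Asns, which makes asparagine and is a standard target of the response to amino acid shortage (chromosome 4, 33743364 to 33761163, minus strand). It read 0.417, 1.22 and 0.50 FPKM in control livers, 1.51, 2.14 and 1.87 in model livers and 7.93, 6.03 and 7.01 in pomegranate-high livers. The groups formed 3 steps with no overlap (1.5 ± 0.20 SE, adjusted p = 0.0581), and the pomegranate-high arm lay 1.49 ± 0.23 above the model arm (adjusted p = 0.158). The other genes of the shortage response did not form the same steps. Mthfd2, a mitochondrial folate enzyme, read 0.18, 0.234 and 0.864 FPKM in control livers, 0.319, 1.04 and 0.512 in model livers and 2.37, 2.72 and 2.74 in pomegranate-high livers (0.78 ± 0.21), so that the model arm overlapped with the controls. The serine synthesis genes Phgdh (1.44 ± 0.58), Psat1 (0.98 ± 0.31) and Psph (0.54 ± 0.22) each overlapped in at least 1 library of an arm. Of the 16 genes of this list 8 were higher in both arms, 4 lower and 4 mixed, with a median of 0.51 made of 0.05 for model and 0.75 for pomegranate-high. With Asns left aside, 7 of 15 were higher, 4 lower and 4 mixed (median 0.47). The mean level of the whole list ran from −0.51 to 0.60 among the controls alone. The median was 0.23 without control replicate 1 and 0.96 without control replicate 3.

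Anxa7, an annexin that binds calcium and membranes, read 2.96, 2.72 and 3.56 FPKM in control livers, 7.39, 6.51 and 5.93 in model livers and 12.4, 13.4 and 7.37 in pomegranate-high livers. Both arms lay above the controls (1.21 ± 0.21 SE, adjusted p = 0.298). Lcn2, a siderophore-binding protein of the acute phase response, read 1.67, 0.88 and 1.88 FPKM in control livers, 10.0, 35 and 9.62 in model livers and 39.9, 326 and 8.01 in pomegranate-high livers. All 6 libraries stood above the controls, and pomegranate-high replicate 2 stood far above the other 5 (3.54 ± 0.89, adjusted p = 0.794). Without the 3 high-mitochondrial libraries the difference of Lcn2 was 2.45. Cxcl9, a chemokine induced by interferon gamma, read 9.08, 6.02 and 11.3 FPKM in control livers, 15.3, 24.1 and 16.4 in model livers and 38.1, 135 and 27.7 in pomegranate-high livers (1.75 ± 0.44). The same pomegranate-high library was the highest. Pla2g2a, a secreted phospholipase, read 0.656, 0.921 and 0.262 FPKM in control livers, 1.46, 1.08 and 1.31 in model livers and 7.92, 6.61 and 2.17 in pomegranate-high livers (1.22 ± 0.31). Gpnmb, a glycoprotein of lipid-laden macrophages, read 7.22, 7.23 and 6.15 FPKM in control livers, 12.6, 15.7 and 10.1 in model livers and 88.3, 55.6 and 17.7 in pomegranate-high livers (1.66 ± 0.41). For the last 3 genes the pomegranate-high arm carried most of the difference, with unadjusted p values between the arms of 0.0148, 0.00279 and 0.00386 that did not pass adjustment (0.481, 0.478 and 0.478 by limma).

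Of the 16 inflammation and chemokine genes tested 10 were higher in both arms, 3 lower and 3 mixed (median 0.44, from 0.10 for model and 0.82 for pomegranate-high), and 1, Cxcl9, met an unadjusted p under 0.05. The 18 acute phase proteins, the list that holds Lcn2, split into 4 higher, 5 lower and 9 mixed (median −0.05). Beside these genes, the 9 neutrophil markers in the table summed to 2.36 to 3.89 FPKM in control, 1.27 to 6.99 in model and 4.15 to 34.4 in pomegranate-high livers, where pomegranate-high replicate 2 was the highest library. Of these markers 2 were tested, Fcnb (1.17) and S100a9 (0.43), with a median of 0.03 for model and 1.57 for pomegranate-high. On the higher side 1 of the 2 met an unadjusted p under 0.05, against 3.31% of all genes. S100a9 stood at −0.03 without pomegranate-high replicate 2. The members named next did not pass the expression filter, and they differed. S100a8 and Csf3r were highest in pomegranate-high replicate 2 (6.59 and 1.11 FPKM). Retnlg was highest in control replicate 1 (0.921 FPKM) and Camp in model replicate 1 (0.197 FPKM). Mpo, a peroxidase, was listed at 0 in every library but control replicate 2, where it stood at 0.0204 FPKM. The levels of Camp and Mpo lay near or under the limit of 3 reads, so their order among the libraries shows nothing. The part of neutrophils in the level of Lcn2 was not tested.

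The remaining higher genes included 2 of the vessel wall and matrix. Lox, which cross-links collagen, read 0.643, 0.338 and 0.0347 FPKM in control livers, 2.30, 1.09 and 1.41 in model livers and 1.45, 4.68 and 3.21 in pomegranate-high livers (1.26 ± 0.28 SE). Ptgis, which makes prostacyclin, read 0.0365, 0.284 and 0.394 FPKM in control livers, 0.906, 0.397 and 1.00 in model livers and 2.52, 1.47 and 2.07 in pomegranate-high livers (0.89 ± 0.20). Both were low in the controls, and 1 model library of Ptgis stood next to the highest control. Acta2, the actin of contractile stellate cells, read 3.20, 2.77 and 2.44 FPKM in control livers, 3.47, 9.31 and 4.76 in model livers and 5.40, 5.16 and 4.59 in pomegranate-high livers (0.72 ± 0.25), while the collagen genes Col1a1 (−0.02 in the model arm, 1.42 in the pomegranate-high arm) and Col3a1 (−0.19 and 1.24) stood near control in the model arm. Nucb2, the precursor of the hormone nesfatin, read 22.0, 18.9 and 16 FPKM in control livers, 40.1, 34.8 and 24.3 in model livers and 45.1, 31.8 and 37.2 in pomegranate-high livers (0.86 ± 0.22). Pak1, a kinase of the cytoskeleton (0.88 ± 0.22), Lysmd2 (0.67 ± 0.17) and Tex13b (1.39 ± 0.33) closed the group.

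Of the 12 lipid genes added by symbol, 1 stood apart from the controls in all 6 libraries, as did 2.57% of all genes. This was Cyp7a1, whose enzyme sets the rate at which bile acids are made. It read 14.0, 15.3 and 17.9 FPKM in control livers, 175, 28.9 and 45.1 in model livers and 76.2, 28.6 and 60.2 in pomegranate-high livers. All 6 libraries stood above the controls, with a wide spread within each arm (1.77 ± 0.50 SE, adjusted p = 0.808). The difference was 1.40 without model replicate 1 and 1.52 without the 3 high-mitochondrial libraries. The other bile acid genes did not share it, since of the other 15 tested 4 were higher in both arms, 5 lower and 6 mixed (median 0.06). Cyp8b1, which sets the kind of bile acid made, read 248, 353 and 299 FPKM in control livers, 208, 313 and 333 in model livers and 129, 107 and 517 in pomegranate-high livers. Abca1, which exports cholesterol from cells and was not one of the 12, read 5.76, 5.45 and 4.92 FPKM in control livers, 11.8, 7.51 and 7.99 in model livers and 7.49, 13.6 and 7.72 in pomegranate-high livers, without overlap (0.67 ± 0.23), and Abcg1, a partner in sterol export, stood at 1.11. Abcg5, which secretes sterol into bile, overlapped (0.39 ± 0.32). Apob, the core protein of secreted lipoproteins, read 238, 180 and 163 FPKM in control livers and overlapped with both arms (0.19 ± 0.24).

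Fatty acid genes mostly overlapped between arms and controls. Acss2, which makes acetyl-CoA from acetate, and Lpin1, a phosphatidate phosphatase, lay below all controls in all 6 libraries (−0.52 ± 0.20 and −1.31 ± 0.38). Fasn, which builds fatty acids, stood at −0.20 ± 0.37, Scd, which desaturates them, at 0.70 ± 0.71, and Cpt1a, which admits them to mitochondria for oxidation, at −0.20 ± 0.32. Of the 25 fatty acid oxidation genes tested 17 were lower in both arms, 1 higher and 7 mixed, with a small median of −0.23, and 1, Cpt2, met an unadjusted p under 0.05 (−0.61). Of the 13 triglyceride storage genes 9 were lower and 0 higher (median −0.35). With the 3 high-mitochondrial libraries left out, the median of the oxidation list turned to 0.07 and that of the triglyceride list was −0.08. Cytochromes of the drug and steroid families stood higher in part. Cyp2c11, a steroid hydroxylase of male rat liver, read 488, 380 and 374 FPKM in control livers, 951, 595 and 560 in model livers and 744, 838 and 578 in pomegranate-high livers (0.76 ± 0.25). Cyp2c22, a relative, read 599, 539 and 612 FPKM in control livers, 1100, 679 and 1040 in model livers and 1070, 1290 and 752 in pomegranate-high livers (0.73 ± 0.25). Neither overlapped, and reads can be shared among the copies of this family. Of the 17 tested members of the P450 list 6 were higher in both arms, 6 lower and 5 mixed.

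**Figure D5:**
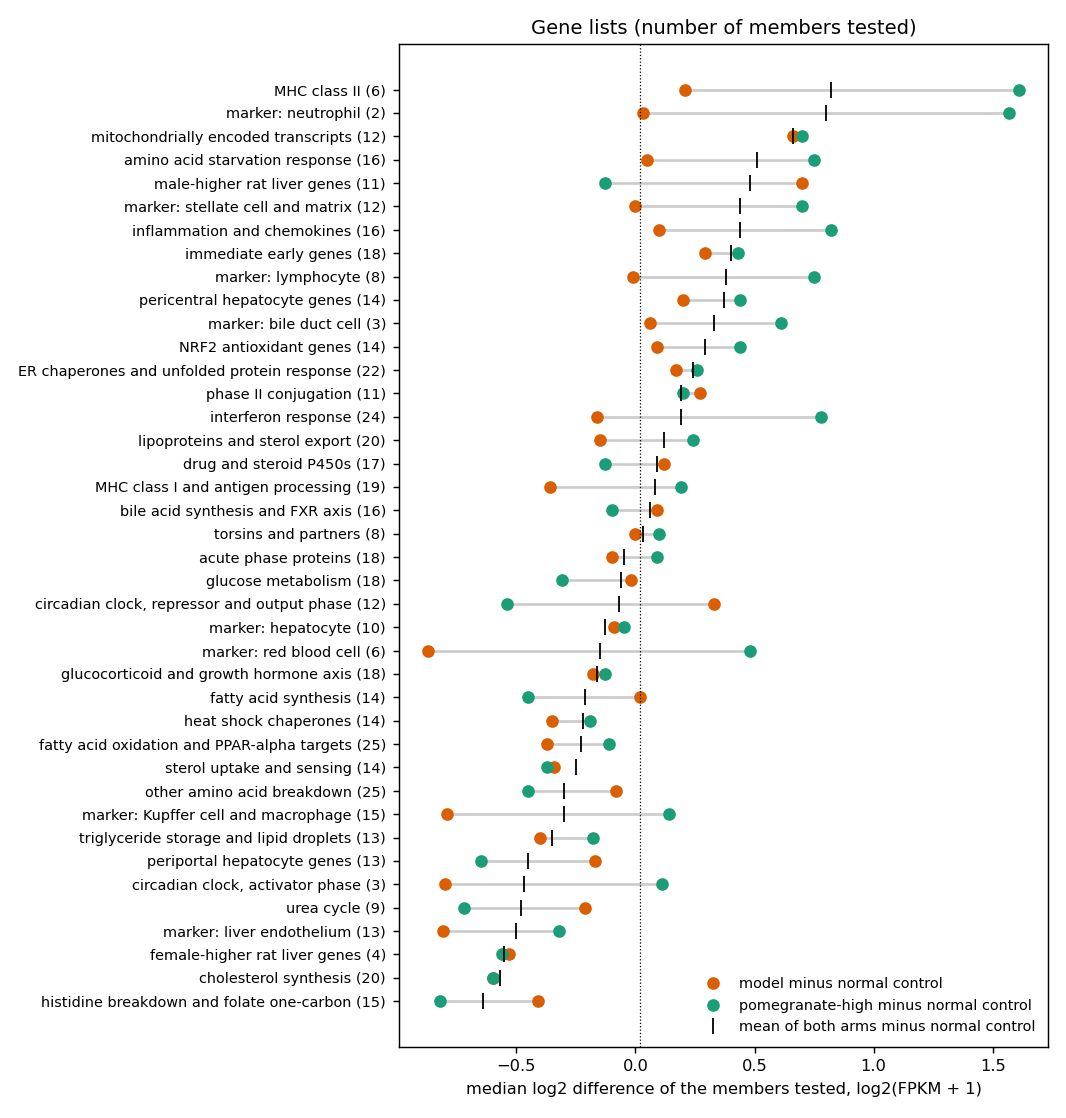
Median log2 difference of the tested members of 40 gene lists, for the model arm minus control, the pomegranate-high arm minus control and the mean of both arms, with the number of members tested after each name and a dotted line at the median of all genes (0.02). Cholesterol synthesis shows the same median in both arms (−0.60), endothelial markers are lower in the model arm (−0.81) than in the pomegranate-high arm (−0.32), and red blood cell markers lie on opposite sides.

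The arms parted in the circadian genes, where of 12 clock repressor and output genes 9 stood on opposite sides of control in the 2 arms (median 0.33 for model and −0.54 for pomegranate-high). The hour at which the livers were taken is not in the labels. Mitochondrially encoded transcripts were higher in both arms for 11 of 12 members (median 0.66), and 0 met an unadjusted p under 0.05. Without the 3 high-mitochondrial libraries their median was 0.03. Because the FPKM scale divides by the library total, a raised mitochondrial share lowers every other gene of that library, and its part in the lower genes above was not tested beyond the values given without those libraries and with the share as a covariate.

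For the 24 named genes the arms were also compared with each other. Of these genes 8 had an unadjusted p under 0.05 between the arms and 0 passed the adjusted threshold by limma, where over all genes 963 (8.69%) and 1 (0.00903%) did. Without pomegranate-high replicate 3, the count past the adjusted threshold between the arms was 3 among the 24 and 77 among all 11078 genes. Asns, Anxa7, Ptgis, Gpnmb, Cxcl9 and Pla2g2a stood higher in the pomegranate-high arm than in the model arm, Amdhd1 stood closer to control in it, and Hal further from control.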

How the data were processed

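Poly(A) RNA of rat liver was enriched on oligo(dT) beads, fragmented, copied with random primers and amplified by PCR, per the labels' protocols. The authors deposited FPKM values for 20236 genes in 9 libraries, and replicates were not pooled. Per the submitters' processing notes the build was Rnor_6.0, and the tools named, with no role or order, were HISAT2, TopHat2, DESeq, DESeq2, Bowtie2 2.2.3 and HTSeq 0.6.0. How the FPKM values were computed, and whether strand was used, is not stated in the labels or headers, so overlapping genes may share reads. All value columns matched a sample by title, and 0 were left unmapped. Any pair of libraries differed in at least 84.7% of values.

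The low values were whole multiples of 1 read, and 100% of 146433 values above 0 came out whole within 0.001 reads. The recovered reads summed to at least 99.987% of the depth that the scale implies (13678658 to 17966670 reads). These reads served the voom alternative and the read counts given for RT1-CE16.

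The labels' group field gave the groups. Genes with FPKM of 1 or more in 3 or more of the 9 libraries entered 1 limma 3.58.1 fit (R 4.3.3) on log2(FPKM + 1) with 3 group levels and a prior variance following intensity. The contrasts were the mean of both arms minus control, each arm minus control, and pomegranate-high minus model. P-values were two-sided and Benjamini-Hochberg adjusted over all genes tested, with a threshold of 0.05. The script was tested on simulated data. Named genes had a symbol that is no clone or locus identifier, both arms on the same side of control and all 6 libraries beyond all 3 controls, 12 per direction. The 3 members of each list with the smallest p, where it had as many, and 12 lipid genes were added, and further list members were picked after their values were seen. Some of these genes are not reported here. The 40 lists hold 607 symbols, of which 571 matched by symbol, 2 through synonyms in a RefSeq table (GRCr8, names only), and 34 did not match. The 10 symbols with several gene identifiers count once per identifier. The comparison, the members and the lists were chosen with earlier results of these data known. Lists are described by counts and medians and were not tested as sets.

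The alternatives were a mean FPKM of at least 5, no low-value filter, a pseudocount of 0.1, TPM, median-of-ratios and quantile scaling, both arms as 1 group, library quality weights, no intensity trend, the mitochondrial share as a covariate, voom on recovered reads, leaving out each library, leaving out the 3 libraries with the highest mitochondrial share and, added after the data were seen, the number in the library titles as a block.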

Additional observations from a re-analysis of the deposited data

Results flagged for a closer look

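Among the 24 named genes, 1 had a library that stood apart from the other 5 of the 6 in both arms. RT1-CE16 stood at 0.91 FPKM, or 15 reads, in pomegranate-high replicate 1 and was listed at 0 in the other 5, so that the gap was the whole range (a ratio of 1.0, above Dixon's critical value for 6 libraries). With the other 5 libraries tied at 0, any value above 0 gives a ratio of 1.0, so the ties fixed this flag. The rate of about 1 in 20 by chance therefore does not apply to it, and 24 genes were checked. Pomegranate-high replicate 1 also held 10.3 FPKM of the overlapping copy of RT1-CE16. Without this library the difference of RT1-CE16 from control was −2.80 (adjusted p = 0.00514 by limma, range over 21 alternatives 0.00119 to 0.162).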

How the results depend on the processing

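Of 137 genes followed through the alternatives, 8 changed sign in at least 1 (among them Nqo1, Scd, Spp1, Apob, S100a9, Cpt1a and Fasn), and 0 of them had passed the test. Genes called numbered 0 with a pseudocount of 0.1, a mean FPKM of 5 or more, the mitochondrial share as covariate or without the 3 high-mitochondrial libraries, 3 with no filter, 5 with library quality weights, and 0 to 7 with 1 library left out. At 0 calls, genes with an unadjusted p under 0.05 numbered 578, 299, 569 and 728 in those 4 fits. The called gene, RT1-CE16, lay below a mean FPKM of 5 and was not tested in that fit. The 7 came without pomegranate-high replicate 3 and the 0 without control replicate 2 or 3 or any model library, so 6 of the 9 fits without a library moved the call. Voom on recovered reads called 1 gene and gave 567 at an unadjusted p under 0.05. With library weights the 4 added genes were Tm7sf2 (adjusted p = 0.0159, range over its alternatives 0.0159 to 0.361), Zbtb16 (0.0123, 0.0123 to 0.493), Anxa7 (0.0277, 0.0277 to 0.904) and Asns (0.0287, 0.0287 to 0.872). The 99 genes past an unadjusted p of 0.05 in both arms became 233 with no filter, 50 at a mean FPKM of 5 or more, 230 with library weights and 154 under a mitochondrial covariate or without the 3 high-mitochondrial libraries, and 72 to 137 with 1 library left out. The 579 genes at an unadjusted p under 0.05 became 1034 with no filter, 299 at a mean FPKM of 5 or more and 1565 with library weights, and 335 to 1333 with 1 library left out. Named genes past the adjusted threshold between the arms numbered 0 to 3 with 1 library left out. The cause of these shifts was not tested, save that the filters change how many genes enter. The list medians stayed on their side of 0 in all alternatives for cholesterol synthesis (−0.78 to −0.26), histidine and folate genes (−0.77 to −0.38), endothelial markers (−0.68 to −0.46), periportal genes (−0.63 to −0.31), other amino acid breakdown (−0.39 to −0.20) and the amino acid shortage response (0.13 to 0.96), while the bile acid list changed sign in 6 of 22. With 1 library left out the medians ran from −0.44 to −0.14 for heat shock chaperones, −0.61 to −0.30 for the urea cycle, −0.35 to −0.12 for fatty acid oxidation, −0.44 to −0.21 for triglyceride storage, 0.29 to 0.55 for inflammation and 0.43 to 0.93 for mitochondrial transcripts. Levels under the limit of 3 reads cannot be told from 0 at this depth. Library titles carry numbers, some of which recur in another group, and no label says what they mark. Of 4 pairs of libraries with equal numbers, 2 had deviations from their group means that correlated above 0.1 across genes (range −0.40 to 0.50), so the numbers were not taken to pair the libraries. A fit with this number as a replicate block, chosen after the data were seen and with 2 residual degrees of freedom, called 0 genes (RT1-CE16 −2.44, adjusted p = 0.0601), gave 1896 genes at an unadjusted p under 0.05 and 277 in both arms, and put 3 named genes past the adjusted threshold between the arms.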

Other observations

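MHC class II and interferon genes, not described above, stood higher mainly in the pomegranate-high arm, a difference between the arms that was not tested for the lists. Of the 6 MHC class II genes tested, which present antigen to helper T cells, 4 were higher in both arms and 2 mixed, with a median of 0.82 from 0.21 for model and 1.61 for pomegranate-high. Cd74, their chaperone, read 91.1, 115 and 252 FPKM in control livers, 101, 237 and 230 in model livers and 848, 644 and 259 in pomegranate-high livers, so that the 3 pomegranate-high libraries stood above all others, 1 of them narrowly. Mean levels of the class II list, relative to the control mean, were −0.64, −0.17 and 0.80 in control and 2.49, 1.60 and 0.65 in pomegranate-high livers. Pomegranate-high replicate 3 thus lay within the range of the controls. The 24 interferon response genes split into 7 higher in both arms, 4 lower and 13 mixed. Cxcl10, a chemokine of that response, read 1.91, 1.49 and 5.84 FPKM in control livers, 2.71, 7.33 and 13.7 in model livers and 24.5, 154 and 22.7 in pomegranate-high livers (2.35, unadjusted p = 0.0043). Of 22 chaperones of the endoplasmic reticulum and unfolded protein genes 13 were higher in both arms and 3 lower, with a median of 0.24 (0.17 for model and 0.26 for pomegranate-high, and 0.09 over both arms without model replicate 2) and 1 member, Edem1, at an unadjusted p under 0.05 on the lower side (−0.69).

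Some of the 99 genes were picked for mention after their values were seen. Ubd, a ubiquitin-like protein induced by interferon, read 0.311, 7.77 and 20.2 FPKM in control livers, 45.4, 27.8 and 33.1 in model livers and 185, 696 and 36.1 in pomegranate-high livers (3.63 ± 0.94 SE). Ddit4, an inhibitor of mTOR signalling, read 5.47, 3.74 and 9.09 FPKM in control livers, 1.40, 2.74 and 3.00 in model livers and 2.17, 2.31 and 2.96 in pomegranate-high livers (−1.0 ± 0.26). Gys2, the liver glycogen synthase, read 21.5, 20.7 and 20.3 FPKM in control livers, 34.3, 30 and 30.9 in model livers and 44.6, 26.9 and 30.4 in pomegranate-high livers (0.62 ± 0.20). In these 3 genes the 6 libraries of the arms lay on 1 side of the controls, and none passed adjustment by limma.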
